A study of Rattus norvegicus with 18 samples.

Results

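The genes described here encode the machinery that takes a cell through G2 and mitosis. The list holds 38 genes that share known roles in mitosis, and it was drawn up with earlier results of these data known. Through RefSeq accessions, 32 of them matched a probe on the array, and all 32 were among the 10914 genes tested. Bub1b, Top2a, Anln, Kif4a, Cdc25c and Cenpe matched no probe in the gene table used and were not analysed here.

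Liver RNA came from 18 male F344/NSlc rats, bought at 5 weeks of age and held for 1 week on a basal diet, with 1 rat per array and 3 rats in each of 6 groups. One pair of groups received carbon tetrachloride (CCl4), 100 mg/kg in corn oil, for 28 or 84 days. A second pair received N-nitrosodiethylamine (DEN), 4 mg/kg in saline, for the same times. Both were given by gavage every day in 5 mL/kg. The last pair were the controls of each day, which the sample titles call vehicle and the protocol calls untreated rats on basal diet, so gavage and vehicle cannot be told apart from the compounds. All groups shared the strain, sex, supplier and diet, and no rat carried an introduced allele.

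A cell enters mitosis when Cdk1, bound to cyclin A or B, becomes active. Aurora and Polo-like kinases then mature the spindle poles, kinesins separate them, and the Ndc80 complex ties each chromosome's kinetochore to microtubules. The spindle checkpoint holds the anaphase-promoting complex (APC/C) back until every kinetochore is attached, after which separase opens the cohesin rings, the midzone forms and cytokinesis follows. Hepatocytes of a healthy adult rat are mostly quiescent and re-enter the cycle after cell loss, and in young rats some complete mitosis without cytokinesis and become binucleate. Most of these genes are switched on together late in the cycle, through promoters that often hold CCAAT boxes, bound by NF-Y, and a cell cycle genes homology region (CHR), bound by the MuvB complex with B-Myb and FoxM1.

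The promoter stretches of 6 of the genes are shown as examples: both kinds of motif (Cdk1, Ccnb2, Plk1 and Mki67), CCAAT letters alone (Ccnb1) and neither (Bub1). Windows with CHR letters alone (Anln, Bub1b, Mad2l1 and Ndc80) are not shown. Each stretch shown runs 5′ to 3′ on the gene's own strand, in RefSeq's annotation of the GRCr8 rat genome. It reaches from 150 bases before to 20 bases after the annotated start. Capitals mark the box, searched as CCAAT on either strand, and the CHR letters, searched on either strand as TTTGAA and as its variant TTCGAA.
Cdk1, chr20:19265143-19265312, plus strand: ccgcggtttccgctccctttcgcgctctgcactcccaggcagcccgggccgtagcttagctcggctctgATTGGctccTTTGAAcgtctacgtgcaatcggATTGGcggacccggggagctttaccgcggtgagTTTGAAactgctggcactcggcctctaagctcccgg
Ccnb2, chr8:79981639-79981808, minus strand: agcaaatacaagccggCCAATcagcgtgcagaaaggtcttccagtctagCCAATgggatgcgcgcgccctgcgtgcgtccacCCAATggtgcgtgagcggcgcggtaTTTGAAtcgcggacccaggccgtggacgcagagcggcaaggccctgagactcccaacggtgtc
Plk1, chr1:186147508-186147677, plus strand: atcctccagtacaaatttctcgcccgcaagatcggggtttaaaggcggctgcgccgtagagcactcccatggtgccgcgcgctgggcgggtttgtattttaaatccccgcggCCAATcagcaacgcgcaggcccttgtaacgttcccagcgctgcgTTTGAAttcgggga
Mki67, chr1:199952574-199952743, minus strand: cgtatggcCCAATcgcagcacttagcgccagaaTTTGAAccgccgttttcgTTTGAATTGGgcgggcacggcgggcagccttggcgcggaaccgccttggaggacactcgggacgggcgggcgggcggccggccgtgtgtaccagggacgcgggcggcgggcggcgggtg
Ccnb1, chr2:33655206-33655375, minus strand: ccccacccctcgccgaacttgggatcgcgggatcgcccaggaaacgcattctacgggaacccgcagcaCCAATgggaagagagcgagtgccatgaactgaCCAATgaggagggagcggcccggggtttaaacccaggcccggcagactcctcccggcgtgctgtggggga
Bub1, chr3:135504902-135505071, minus strand: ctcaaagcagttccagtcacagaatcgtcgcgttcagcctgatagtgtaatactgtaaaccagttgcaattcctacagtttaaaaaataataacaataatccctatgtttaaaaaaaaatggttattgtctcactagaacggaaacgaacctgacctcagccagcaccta

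In the Mki67 stretch the second CHR run and a reversed CCAAT box share their last and first letters. Promoter windows of 250 bases before to 50 bases after the start were available for 31 of the 38 genes, and none was used for Aurkb, Ccna2, Tpx2, Incenp, Ube2c, Foxm1 or Racgap1. In 6 of them (Aurka, Birc5, Kif11, Kif23, Nuf2 and Ttk) the window's start lay over 1 kb inside the gene, downstream of its outermost annotated 5′ end, and these were left out. The other 25 windows started within 300 bases of that end, a limit set after seeing the data and applied to all genes. CCAAT letters stood in 19 of the 25 windows (76.0%), against 40.1% of 6507 windows of tested genes and 38.4% of 23281 windows of all genes. At least 2 of them stood in 16 windows (64.0%), against 15.0% of the tested genes' windows. CHR letters stood in 19 windows (76.0%), against 13.4% of the tested genes' windows, and both motifs in 15 windows (60.0%), against 5.81% of the tested genes' windows. Base composition was close, with a median of 57.7% G and C in the windows of the mitosis genes and 60.3% in those of the tested genes. Both kinds of letters lay within the last 100 bases before the start in Cdc20, Cdk1, Ccnb2 and others, and Bub1 and Kif2c held neither motif in their windows.

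**Figure D1:**
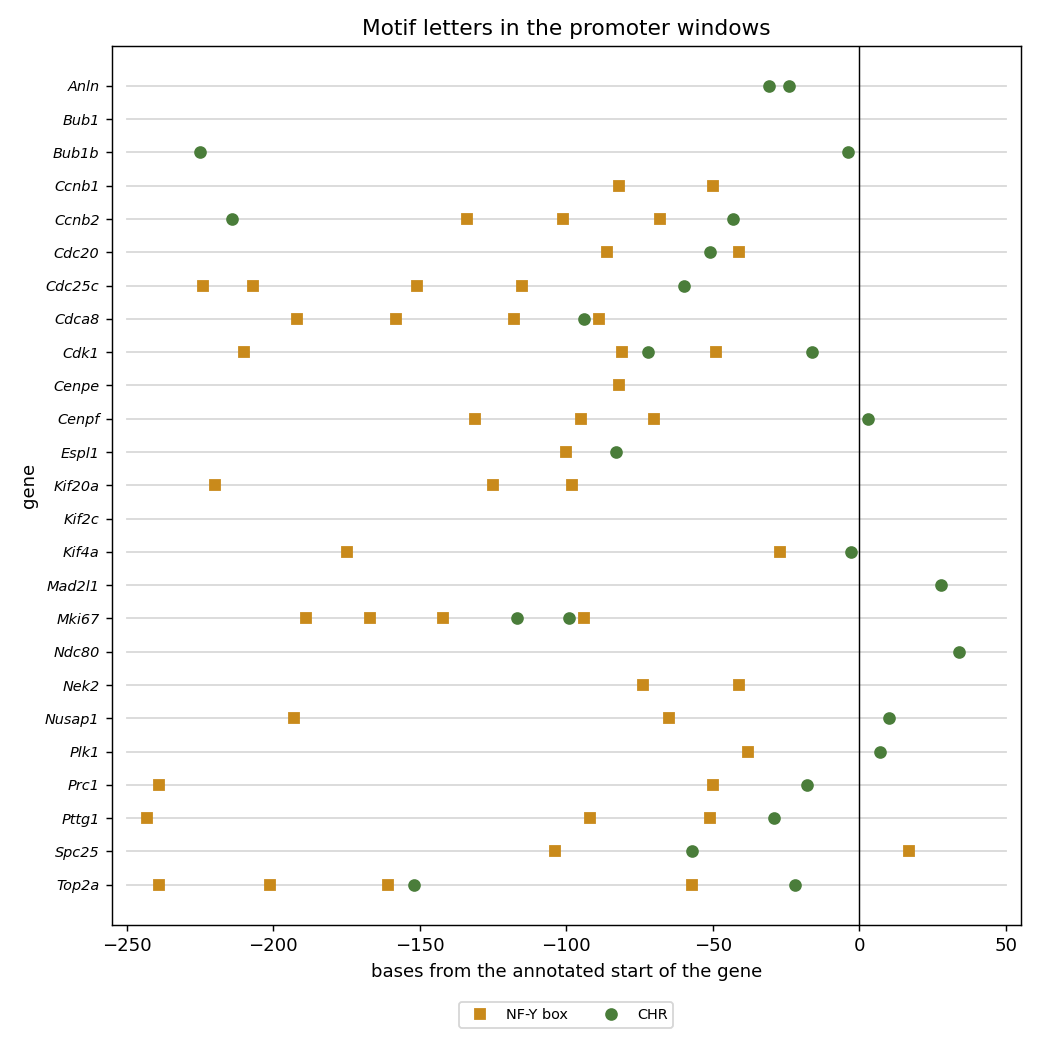
Positions of the CCAAT box, bound by NF-Y (squares), and CHR letters (circles), found on either strand, in the promoter windows of 25 mitosis and spindle genes; the horizontal axis is the distance in bases from the annotated start, and each grey line is the window searched. CCAAT letters appear in 19 windows and CHR letters in 19, while the lines of Bub1 and Kif2c carry no mark.

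Levels are given as the log2 of the background-corrected signal minus the log2 of the array's 75th percentile of signal, so that 0 is a signal at that percentile. Levels of different genes come from different probes and are not set against each other. Differences were tested with limma, with Benjamini-Hochberg adjustment across the 10914 genes, and a gene is said to have risen or fallen where the adjusted p was under 0.05. Errors of log2 fold changes are standard errors of the fit, and errors of levels are SDs over 3 rats. The arrays had 47.2% to 57.0% of 61537 probes well above background, the 9 hepatocyte marker genes among them on every array. All 3 CCl4 arrays of day 28 lay on slides 1 and 2 and those of day 84 on slides 2 and 3, whereas each DEN and control group lay on 1 slide (slide 1 for day 28 and slide 2 for day 84). In whole liver, more dividing cells and more RNA per cell cannot be told apart. Scaled to 280 spike-in spots instead, the arrays' 75th percentile lay higher in treated livers than in controls. The differences were 0.80 (CCl4) and 0.41 (DEN) on the log2 scale at day 28, and 0.55 (CCl4) and 0.72 (DEN) at day 84. The fold changes given here are relative to that shift of the percentile.

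All 32 measured genes rose with CCl4 at both days, among them the 26 that were well above background on all 3 controls of day 28. The others entered the test only through treated groups, so that being high there is built into their choice. At day 28 the 29 genes that were above background on some control array rose by 2.19 (Kif2c) to 4.00 (Kif20a) on the log2 scale. The median of the 32 was 3.45, with genes undetected in controls at a lower bound (3.46 as fitted), where 26.1% of all genes tested rose, 33.6% fell and the median of all genes was -0.06. At day 84 the 27 genes above background on some control array rose by 1.27 (Foxm1) to 3.70 (Prc1). The median of the 32 was 3.04 with the others at their bound (3.15 as fitted), against -0.10 for all genes. Of all genes, 28.0% rose and 36.3% fell. In both comparisons the 3 CCl4 livers lay above the 3 controls for all 32 genes, where this held for 26.1% of all genes at day 28 and 31.0% at day 84. With a normexp background correction (offset 50) the medians were 2.62 at day 28 and 1.75 at day 84.

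DEN moved the same genes little at day 28 and strongly at day 84. At day 28, 10 of 32 rose and 0 fell, with a median of 0.77 with undetected genes at their bound (0.80 as fitted), against -0.04 for all genes, where 7.82% of all genes rose and 7.19% fell. At day 84, 31 of 32 rose and Cdca8 did not pass, with a median of 2.23 with undetected genes at their bound (2.37 as fitted), against -0.08 for all genes, where 21.6% of all genes rose and 31.1% fell. The normexp medians were 0.42 at day 28 and 1.06 at day 84. Each day's CCl4 and DEN comparisons share their control rats, so their values stand side by side and are not independent.

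Detection differed between the groups. Of the 32 genes, 32 were well above background on all 3 CCl4 arrays at both days, 28 on all 3 DEN arrays of day 28 and 31 on those of day 84. In controls 26 were at day 28 and 21 at day 84, and 3 and 5 genes were so on no control array at those days. Aurkb, Cdca8, Cenpf, Kif23, Kif2c and Nek2 entered the test only through treated groups, so that their being high there is built into the choice. For a gene above background on no control array a lower bound is given, against the dimmest signal still called above background.

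**Figure D2:**
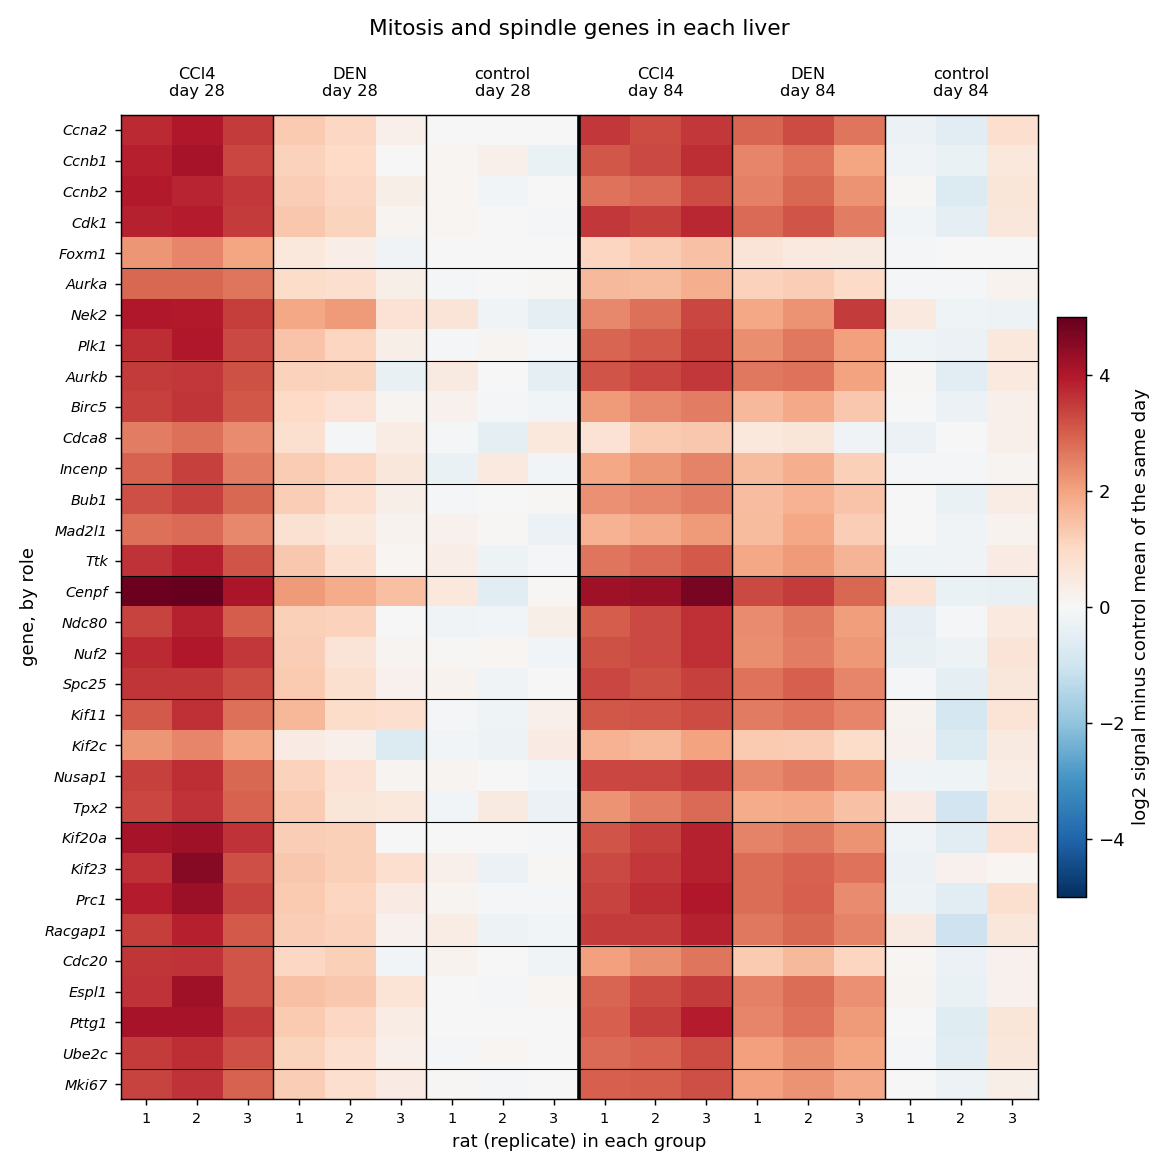
Each cell is the log2 signal of 1 of 32 genes in 1 liver minus the mean of the 3 controls of the same day; columns are the 18 rats by group, and rows the genes by role. All CCl4 columns are red in every row, the day 28 DEN columns fade toward rat 3, and the day 84 DEN columns lie above 0 in every row except Cdca8 in rat 3.

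The kinase that starts mitosis and its cyclins moved by similar amounts. Cdk1 read 5.46, 5.56 and 5.13 in CCl4 livers at day 28, 2.98, 2.75 and 1.76 in DEN livers, and 1.71, 1.65 and 1.52 in controls. At day 84 the readings were 3.88, 3.75 and 4.10 with CCl4, 3.18, 3.50 and 2.91 with DEN, and 0.22, -0.12 and 0.93 in controls. The groups did not overlap at either day, although the third DEN liver of day 28 lay only just above the highest control. Cdk1 rose 13.5-fold with CCl4 at day 28 (adjusted p = 3.13e-07 by limma) and 11.8-fold at day 84 (adjusted p = 4.10e-07). With DEN it did not pass at day 28 (log2 fold change 0.87 ± 0.29, adjusted p = 0.0576 by limma) and rose 7.22-fold at day 84 (adjusted p = 5.88e-06).

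Ccnb1, the B-type cyclin of mitotic entry, read 3.31, 3.55 and 2.77 with CCl4 at day 28, 0.58, 0.42 and -0.58 with DEN, and -0.48, -0.33 and -0.92 in controls. By day 84 the levels were 1.49, 1.69 and 2.10 with CCl4, 0.85, 1.11 and 0.36 with DEN, and -1.79, -1.95 and -1.08 in controls. The third DEN liver of day 28 lay among the controls, and at day 84 all treated livers lay above them. Ccnb1 rose by 3.79 ± 0.33 (CCl4, day 28), 3.36 ± 0.33 (CCl4, day 84) and 2.38 ± 0.33 (DEN, day 84) on the log2 scale. Ccnb2, the second B-type cyclin, and Ccna2, the cyclin of S phase and G2, rose with them: by 3.77 and 3.75 with CCl4 at day 28, by 2.95 and 3.44 with CCl4 at day 84, and by 2.54 and 2.94 with DEN at day 84.

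Foxm1, a transcription factor that activates many of the other genes, moved less than Cdk1 and the cyclins. It read 1.38, 1.58 and 1.13 with CCl4 at day 28, -0.31, -0.49 and -0.999 with DEN, and -0.85, -0.82 and -0.85 in controls. The day 84 livers read 0.10, 0.30 and 0.48 with CCl4, -0.35, -0.48 and -0.54 with DEN, and -1.03, -0.94 and -0.95 in controls. CCl4 and control livers were well apart at both days, while the DEN livers of day 28 straddled the controls. Foxm1 rose 4.61-fold with CCl4 at day 28, 2.41-fold with CCl4 at day 84 and 1.43-fold with DEN at day 84 (adjusted p = 1.35e-07, 9.66e-06 and 0.0120 by limma), and its DEN fold change at day 28 was 0.24 ± 0.15 on the log2 scale (adjusted p = 0.308).

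Of the kinases of the spindle poles, Aurka, which matures centrosomes, read 2.86, 2.86 and 2.66 with CCl4 at day 28, 0.90, 0.83 and 0.30 with DEN, and -0.07, 0.02 and 0.04 in controls. At day 84 the livers read 1.54, 1.50 and 1.74 with CCl4, 1.09, 1.17 and 0.89 with DEN, and -0.19, -0.12 and 0.08 in controls. All 3 groups were separate at both days, and CCl4 livers were higher at day 28 than at day 84. Aurka rose with DEN at both days, 1.60-fold at day 28 and 2.19-fold at day 84 (adjusted p = 0.00580 and 2.44e-05 by limma).

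Plk1, the Polo-like kinase that acts from mitotic entry to cytokinesis, read 3.26, 3.59 and 2.87 with CCl4 at day 28, 1.001, 0.65 and -0.12 with DEN, and -0.53, -0.27 and -0.47 in controls. Its levels at day 84 were 1.48, 1.65 and 2.03 with CCl4, 0.91, 1.20 and 0.62 with DEN, and -1.64, -1.73 and -0.89 in controls. No groups overlapped. Its DEN fold change was 0.93 ± 0.29 at day 28 and 2.33 ± 0.29 at day 84 on the log2 scale, both called. The call of day 28 was lost in 10 of 17 alternative fits, and that of day 84 in 0. Nek2, a kinase that splits the centrosomes, was above background on no control array, and rose at least 5.58-fold with CCl4 and at least 1.21-fold with DEN at day 28, and at least 2.57-fold with CCl4 and at least 2.11-fold with DEN at day 84. The third DEN liver of day 84 read -1.75 for Nek2, above the CCl4 livers, while the other two read -3.31 and -2.99. With the normexp correction Nek2 did not pass with DEN at either day (log2 fold changes 0.08 and 0.23 at days 28 and 84) or with CCl4 at day 84 (0.34). Its further probes gave log2 fold changes of 0.34 and 0.19 with DEN at day 28 and 1.58 and 1.45 at day 84. With CCl4 they gave 2.80 and 2.87 at day 28 and 2.55 and 1.98 at day 84.

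The chromosomal passenger complex corrects wrong microtubule attachments and later works at the midzone. Its scaffold Incenp read 1.39, 1.86 and 0.99 with CCl4 at day 28, -0.29, -0.52 and -1.01 with DEN, and -1.91, -1.06 and -1.71 in controls. At day 84 the readings were 0.18, 0.47 and 0.74 with CCl4, -0.14, 0.06 and -0.53 with DEN, and -1.84, -1.80 and -1.59 in controls. The DEN livers lay above all controls at both days, by a narrow margin at day 28, and Incenp was one of the 10 genes called there (log2 fold change 0.95 ± 0.26, adjusted p = 0.0273 by limma). Birc5 (survivin) rose 10.3-fold and 5.14-fold with CCl4 at days 28 and 84 and 3.04-fold with DEN at day 84. Aurkb, the kinase of the complex, rose by 3.42 on the log2 scale with CCl4 at day 28, and at day 84, when no control array was above background, at least 5.47-fold with CCl4 and at least 2.95-fold with DEN. Only 1 of the 3 controls of day 28 was well above background for Aurkb. Under other processing its CCl4 value of day 28 went down to 1.55, still called.

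Cdca8 (borealin), the remaining subunit, was the exception among the 32. It read -1.98, -1.77 and -2.18 with CCl4 at day 28, -3.73, -4.63 and -4.17 with DEN, and -4.62, -4.99 and -3.99 in controls. By day 84 the levels were -3.36, -2.74 and -2.74 with CCl4, -3.52, -3.48 and -4.25 with DEN, and -4.36, -4.05 and -3.79 in controls. No control array was well above background, DEN livers overlapped controls at both days, and CCl4 livers stood above them. The probe was near the detection limit on the DEN arrays too, where 1 of 3 was above background at day 28 and 2 of 3 at day 84. Cdca8 rose at least 3.07-fold with CCl4 at day 28 and at least 1.76-fold at day 84 (adjusted p = 8.63e-06 and 0.00428 by limma), and its DEN fold change at day 84 was 0.32 ± 0.30 on the log2 scale (adjusted p = 0.388). The gene entered the test only through the CCl4 groups. Being high there is thus built into the choice, and its CCl4 p-values are no separate support. On the slide that holds the controls and 1 CCl4 liver of day 84, with the spread taken from the other groups, the CCl4 log2 fold change was 0.70 (adjusted p = 0.167), and with the normexp correction it was 0.05 and the DEN value turned to -0.33.

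The spindle checkpoint kinases Bub1 and Ttk and the checkpoint protein Mad2l1 rose by 3.16, 3.55 and 2.65 on the log2 scale with CCl4 at day 28, by 2.42, 2.86 and 1.92 with CCl4 at day 84, and by 1.56, 1.93 and 1.57 with DEN at day 84. With DEN at day 28 Bub1 rose (log2 fold change 0.79 ± 0.22, adjusted p = 0.0268 by limma), while Ttk and Mad2l1 did not pass, at 0.77 and 0.48. Bub1 had a further probe, above background on 5 of 18 arrays, that gave 0.69 and 0.64 with CCl4 at days 28 and 84 and -0.43 and -0.51 with DEN, whereas another probe gave 2.97, 2.59, 0.64 and 1.77 in the same order.

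The 4 measured kinetochore genes rose with CCl4 at both days and with DEN at day 84. Cenpf, a large protein of the outer kinetochore, read 0.05, 0.58 and -0.79 with CCl4 at day 28, -2.75, -3.00 and -3.36 with DEN, and -4.34, -5.45 and -4.81 in controls. All treated livers lay above controls, none of which was well above background. By the probe used, Cenpf rose at least 11.6-fold with CCl4 and at least 1.47-fold with DEN at day 28. At day 84 it rose at least 6.66-fold with CCl4 and at least 2.88-fold with DEN. On the log2 scale its other probes gave 2.94 to 3.45 with CCl4 and 0.53 to 1.78 with DEN at day 28. At day 84 they gave 1.65 to 2.28 with CCl4 and 1.01 to 1.50 with DEN, below the used probe's fitted 4.44 and 3.22. With the normexp correction Cenpf did not pass with DEN at day 28. Ndc80, Nuf2 and Spc25, subunits of the complex that grips microtubules, rose together by 3.42, 3.75 and 3.46 with CCl4 at day 28, by 3.33, 3.37 and 3.30 with CCl4 at day 84 and by 2.36, 2.34 and 2.72 with DEN at day 84. Only 1 of the 3 controls of day 84 was well above background for Ndc80 and for Nuf2. Under other processing their day 84 values went down to 1.42 and 1.71 with CCl4 and 0.78 and 0.89 with DEN, still called. None of the 3 subunits passed with DEN at day 28, when they stood at 0.78, 0.66 and 0.76.

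Among spindle motors and microtubule proteins, Kif11, the kinesin that pushes the poles apart, read 0.19, 0.77 and -0.13 with CCl4 at day 28, -1.25, -1.98 and -2.04 with DEN, and -2.94, -3.12 and -2.62 in controls. The day 84 livers read -0.74, -0.68 and -0.57 with CCl4, -1.23, -1.13 and -1.40 with DEN, and -3.64, -4.71 and -3.15 in controls. The groups were separate at both days, and 2 of the 3 controls of day 84 were not well above background. Kif11 rose 9.02-fold with CCl4 and 2.21-fold with DEN at day 28, and 8.99-fold with CCl4 and 5.97-fold with DEN at day 84. Its second probe, above background on 11 of 18 arrays, gave smaller log2 fold changes at day 84, 1.30 with CCl4 and 0.61 with DEN.

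Kif2c, a kinesin that takes microtubules apart, read -0.65, -0.41 and -0.91 with CCl4 at day 28, -2.45, -2.60 and -3.53 with DEN, and -2.99, -3.11 and -2.44 in controls. At day 84 the livers read -1.90, -1.95 and -1.63 with CCl4, -2.32, -2.34 and -2.72 with DEN, and -3.40, -4.31 and -3.15 in controls. DEN livers and controls overlapped fully at day 28 and were apart at day 84. The DEN log2 fold change at day 28 was -0.01 ± 0.31 (adjusted p = 0.983 by limma), the lowest of the 32 genes, and 2 further probes gave 0.65 and 0.50. Kif2c rose 4.56-fold with CCl4 at day 28, 3.47-fold with CCl4 at day 84 and 2.23-fold with DEN at day 84, the last of which did not pass with the normexp correction (0.06).

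Nusap1, which bundles spindle microtubules, read 3.04, 3.29 and 2.49 with CCl4 at day 28, 0.77, 0.36 and -0.23 with DEN, and -0.23, -0.39 and -0.51 in controls. Its levels at day 84 were 1.70, 1.68 and 1.86 with CCl4, 0.75, 0.94 and 0.60 with DEN, and -1.82, -1.86 and -1.26 in controls. The third DEN liver of day 28 was level with the highest control, and all others were above. Nusap1 rose 9.97-fold with CCl4 at day 28, 10.5-fold with CCl4 at day 84 and 5.32-fold with DEN at day 84. Tpx2, which activates Aurka on the spindle, rose by 3.30, 2.54 and 1.74 on the log2 scale in the same 3 comparisons.

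At the midzone, where the cleavage furrow is placed, Racgap1, a subunit of centralspindlin, read 0.91, 1.33 and 0.54 with CCl4 at day 28, -1.32, -1.40 and -2.31 with DEN, and -2.15, -2.79 and -2.68 in controls. At day 84 its readings were -0.17, -0.16 and 0.20 with CCl4, -1.02, -0.78 and -1.16 with DEN, and -3.21, -4.68 and -3.07 in controls. The third DEN liver of day 28 lay within the controls, and the second control of day 84 lay far below the other two. Racgap1 rose 11.1-fold and 12.2-fold with CCl4 at days 28 and 84 and 6.36-fold with DEN at day 84. Kif23, its partner in centralspindlin, rose 14.0-fold with CCl4 and 2.18-fold with DEN at day 28, and at least 9.14-fold with CCl4 and at least 5.39-fold with DEN at day 84. Prc1, which crosslinks midzone microtubules, and Kif20a, a midzone kinesin, rose by 3.85 and 4.00 with CCl4 at day 28, by 3.70 and 3.46 with CCl4 at day 84 and by 2.71 and 2.45 with DEN at day 84.

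The 4 measured genes of anaphase entry rose with CCl4 at both days and with DEN at day 84. Pttg1 (securin), the inhibitor of separase, read 5.09, 5.10 and 4.48 with CCl4 at day 28, 2.29, 2.01 and 1.32 with DEN, and 0.99, 0.93 and 0.97 in controls. In the day 84 livers it read 3.28, 3.69 and 4.22 with CCl4, 2.71, 3.00 and 2.40 with DEN, and 0.29, -0.31 and 0.87 in controls. Every treated liver lay above every control, and DEN did not pass at day 28 (log2 fold change 0.91 ± 0.32, adjusted p = 0.0658 by limma). Pttg1 rose 15.2-fold with CCl4 at day 28, 10.9-fold with CCl4 at day 84 and 5.36-fold with DEN at day 84. Espl1 (separase) rose in all 4 comparisons, by 3.66 and 3.22 with CCl4 at days 28 and 84 and by 1.17 and 2.55 with DEN. The APC/C activator Cdc20 and the ubiquitin-conjugating enzyme Ube2c rose by 3.43 and 3.46 with CCl4 at day 28, by 2.34 and 3.02 with CCl4 at day 84 and by 1.34 and 2.12 with DEN at day 84.

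Mki67, which coats mitotic chromosomes and is the usual marker of cycling cells, read 2.89, 2.93 and 3.14 with CCl4 at day 84, 1.98, 2.16 and 1.80 with DEN, and -0.11, -0.33 and 0.19 in controls. At day 28 it read 3.96, 4.21 and 3.53 with CCl4, 1.81, 1.41 and 0.995 with DEN, and 0.65, 0.50 and 0.59 in controls. DEN livers lay above controls and CCl4 livers above DEN livers at both days. With CCl4 at day 28 Mki67 rose by 3.32 on the log2 scale. Mki67 rose 8.41-fold with CCl4 and 4.18-fold with DEN at day 84, and 1.77-fold with DEN at day 28 (adjusted p = 7.44e-08, 3.88e-06 and 0.0160 by limma). Its 4 other probes gave 0.44 to 0.68 on the log2 scale with DEN at day 28.

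**Figure D3:**
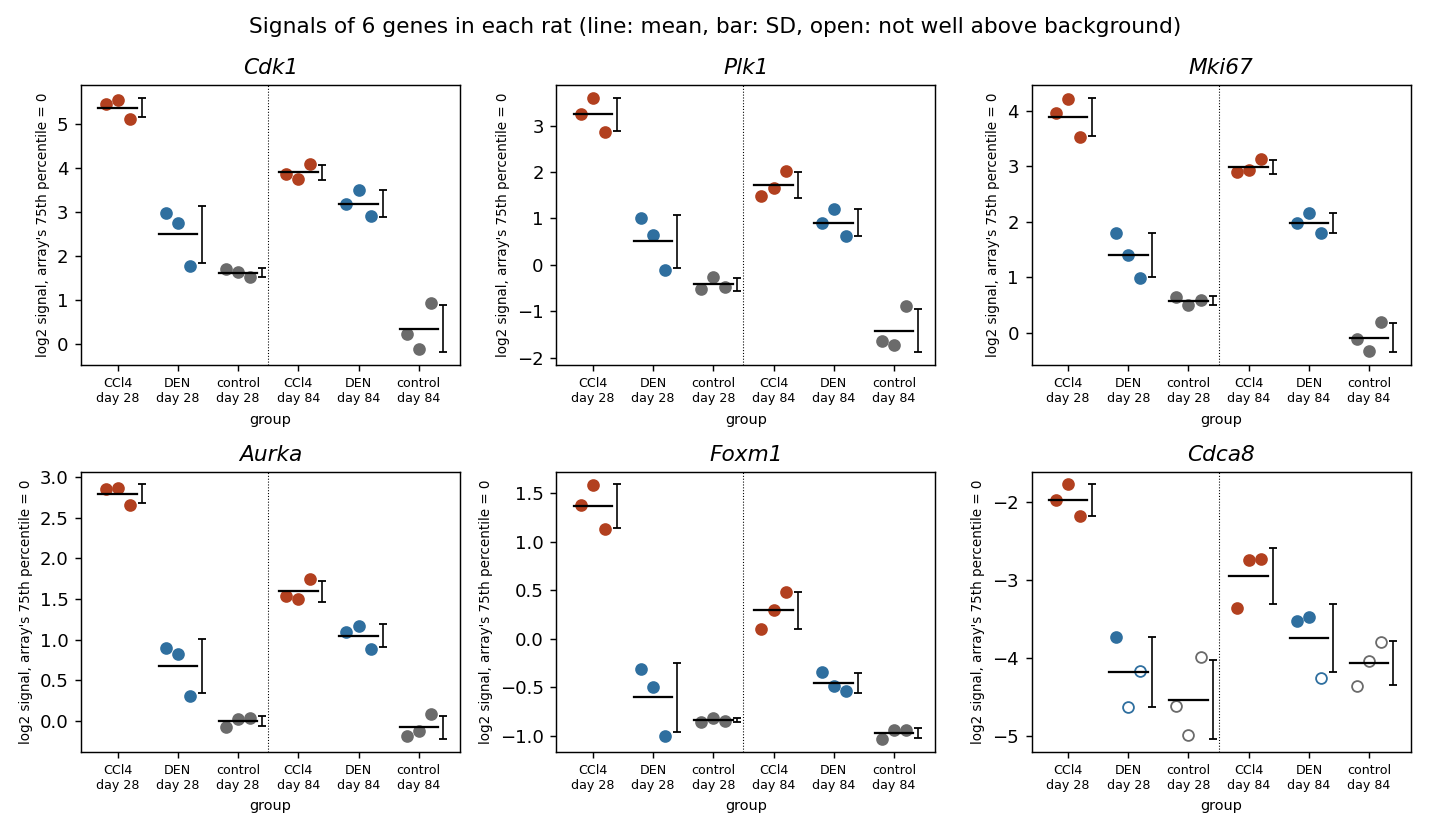
Log2 signal (0 is the array's 75th percentile) of 6 genes in each rat, by group; points are rats, lines means, bars SDs over 3 rats, and open points are signals not well above background. CCl4 livers lie above the DEN livers and controls of the same day in all 6 panels, and for Cdca8 the DEN livers overlap the controls at both days.

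Except among the controls of day 28, rats of one group differed in most of these genes at once. In those controls, rats 1, 2 and 3 were the highest for 16, 9 and 7 genes and the lowest for 7, 12 and 13. Over the 32 genes, the median log2 level above the control mean was 1.24, 1.01 and 0.27 in the 3 DEN livers of day 28, 3.54, 3.74 and 3.14 in the CCl4 livers of day 28, 2.95, 3.11 and 3.38 in the CCl4 livers of day 84 and 2.35, 2.60 and 2.06 in the DEN livers of day 84. In the DEN group of day 28, rat 1 was the highest for 30 of 32 genes and rat 3 the lowest for 31, while over all 10914 genes rat 1 was the highest for 4641 and rat 3 the lowest for 4316. In the DEN group of day 84, rat 2 was the highest for 29 and rat 3 the lowest for 31, against 4395 and 3959 of all 10914 genes. Rat 3 of the CCl4 group at day 28, the 1 array of that day on slide 2, was the lowest for all 32. Over all genes that array was the lowest for 4708. The median SD of the 32 genes within the DEN group of day 28 was 0.497 on the log2 scale, against 0.0927 for all genes tested, and within controls of day 28 it was 0.165 against 0.137.

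The count of genes called with DEN at day 28 rested on single rats. The 10 genes were Espl1, Incenp, Cenpf, Kif23, Mki67, Bub1, Kif11, Aurka, Nek2 and Plk1, while all 3 DEN livers lay above all 3 controls for 20 of 32, where 17.0% of all genes did. Without DEN rat 3 the count was 26, and without DEN rat 1 or 2 it was 2 or 5. Without control rat 1 or 2 it was 6 or 4. It was 5 with the normexp correction, 4 when only the DEN and control arrays of day 28 were fitted, and 30 with scaling to the spike-in spots. Of the alternative fits, 10 of 17 lost the call of Plk1, 8 of 16 that of Nek2 and 7 of 16 that of Kif11. Incenp and Bub1 each lost theirs in 6 of 17, and the rest in 1 to 4.

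**Figure D4:**
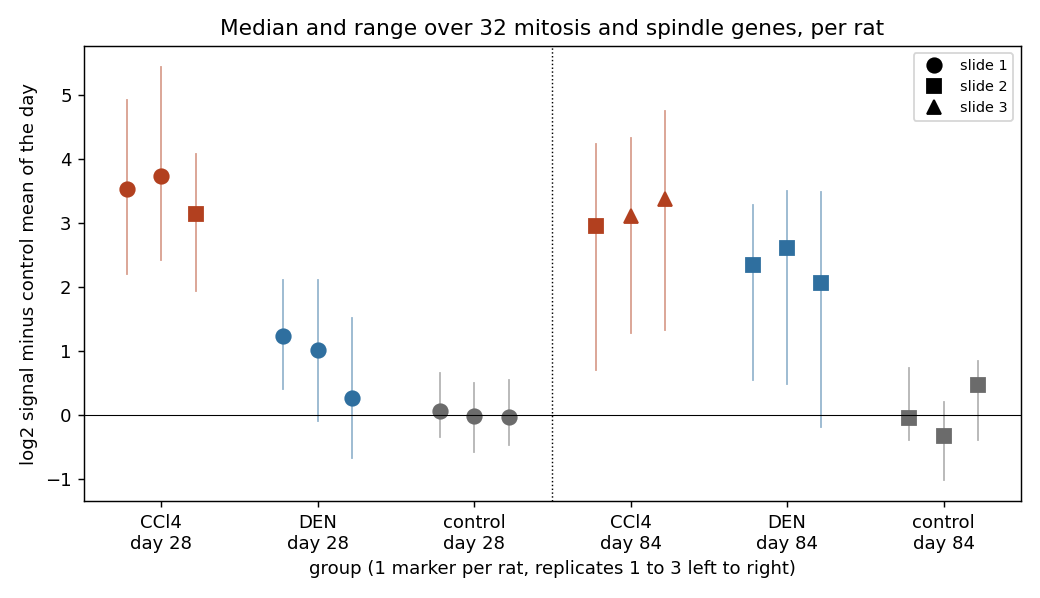
Median (marker) and range (line) over 32 mitosis and spindle genes of the log2 signal minus the control mean of the same day, for each of 18 rats; marker shapes give the slide. The DEN livers of day 28 spread between 1.24 and 0.27, and those of day 84 between 2.60 and 2.06, below the CCl4 livers of either day.

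Set directly against DEN, CCl4 livers were higher at day 28 in all 32 genes, by 1.97 (Foxm1) to 3.18 (Kif20a) on the log2 scale with a median of 2.69, where 20.4% of all genes were called higher. At day 84, 19 of 32 were called higher with CCl4 and 0 lower, with a median of 0.81 against 0.00 for all genes, where 18.5% of all genes were called higher and 15.8% lower. By the 1 probe used per gene, the largest differences at day 84 were those of Cenpf (1.21 ± 0.37), Nuf2 (1.03 ± 0.27) and Pttg1 (1.02 ± 0.32). The smallest was that of Nek2 (0.28 ± 0.45), and Ccna2, Ccnb2 and Mad2l1 stood at 0.51, 0.41 and 0.34, not called. The count at day 84 was 1, with a median of 0.60, on the slide that holds all DEN livers and 1 CCl4 liver of that day (the lone array is assumed to vary like the other groups), and 4 with scaling to the spike-in spots. It was 10 or 7 without DEN rat 1 or 3, and 12 or 6 without CCl4 rat 2 or 3, both of which lay on slide 3.

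The effect of DEN was larger at day 84 than at day 28 for 20 of 32 genes by the test of the difference itself, and smaller for 0, with a median difference of 1.39 on the log2 scale against -0.05 for all genes, where 7.64% of all genes were called higher and 8.41% lower. The differences of Ccna2 (2.06 ± 0.44), Cdk1 (1.98 ± 0.41) and Spc25 (1.96 ± 0.38) were the largest. All 4 measured genes of the midzone and cytokinesis and 4 of the 5 measured genes of Cdk1 control were among the 20, and 1 of the 3 spindle pole kinases was. Those differences draw on the controls of both days as well as on the DEN livers. The count was 12 with the normexp correction, 13 without control rat 1 of day 28 or of day 84, 9 without control rat 2 of day 84, 11 without DEN rat 3 of day 28, and 12 or 7 without DEN rat 1 or 2 of day 84.

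The effect of CCl4 differed between the days for 2 of 32 genes, with a median difference of -0.44, where 2.52% of all genes were called lower and 3.51% higher. Aurka (-1.12 ± 0.20, adjusted p = 0.00632 by limma) and Foxm1 (-0.94 ± 0.22, adjusted p = 0.0221) rose less at day 84 than at day 28. Nusap1 and Racgap1 had differences above 0, of 0.08 ± 0.34 and 0.14 ± 0.53, smaller than their standard errors. With the slide as a block the median was -0.95 and the same number of genes was called, and with the normexp correction 11 were called. Without control rat 2 or CCl4 rat 1 of day 84 the count was 1.

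**Figure D5:**
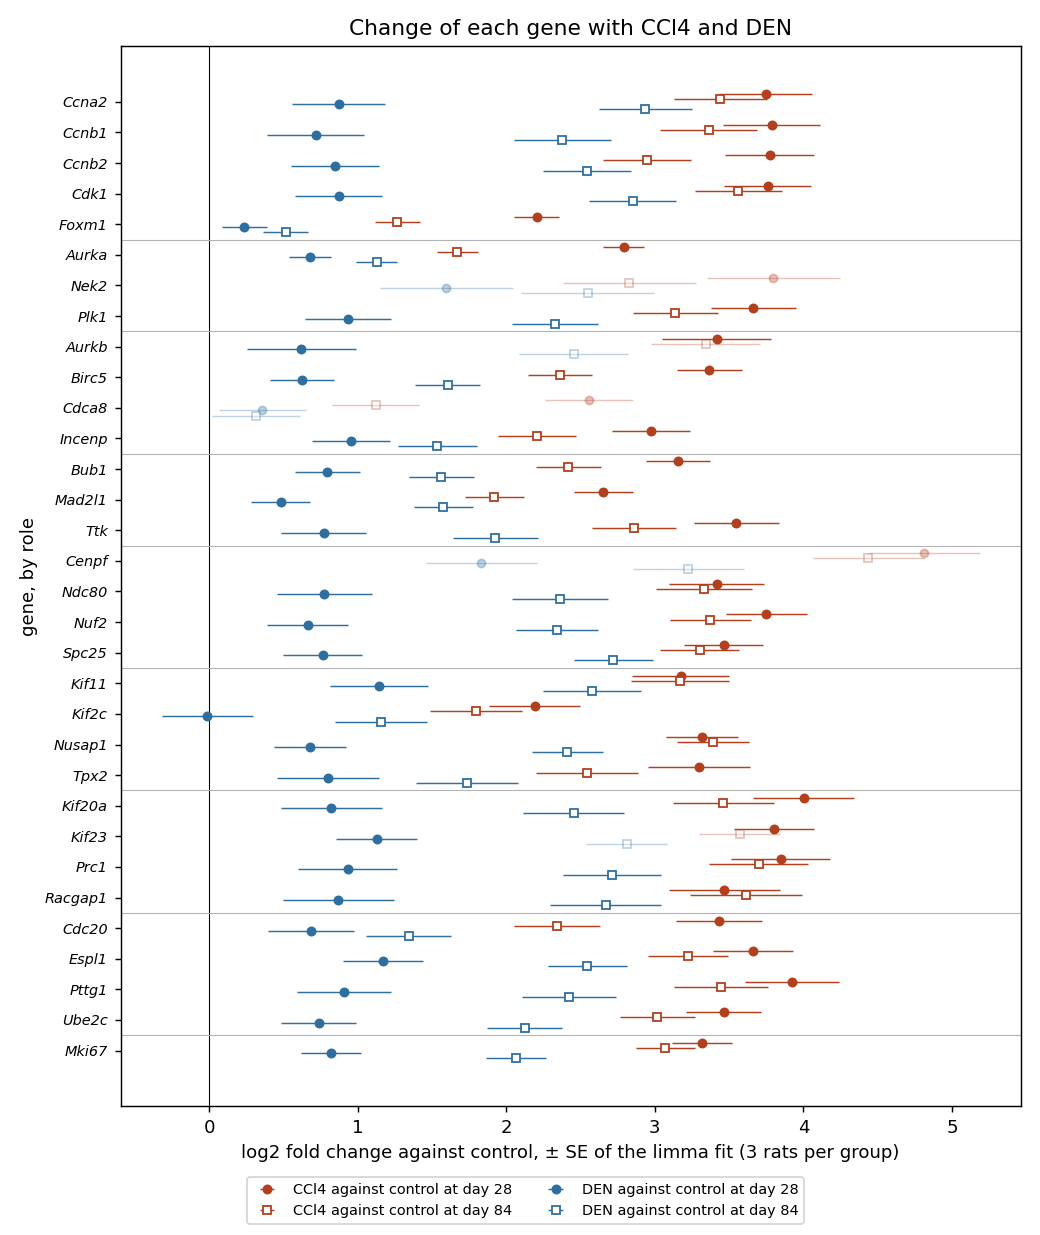
Log2 fold change against control of 32 genes, grouped by role from top to bottom, with CCl4 in red and DEN in blue, day 28 as filled circles and day 84 as open squares; bars are standard errors of the fit with 3 rats per group. CCl4 lies to the right of DEN for every gene at the same day, and DEN at day 28 lies nearest 0, at -0.01 for Kif2c, except in Cdca8, where DEN at day 84 does. Pale symbols are fitted values of genes that no control array of that day had well above background, so that only a bound holds for them.

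Between the controls themselves the genes were lower at the later day. The controls of day 84 lay below those of day 28 for 31 of 32 genes in the mean, with a median of -0.73 against -0.04 for all genes, and 7 were called lower (Cdk1, Nusap1, Aurkb, Spc25, Plk1, Ube2c and Kif23), where 5.32% of all genes were. Cdk1 fell by 1.28 ± 0.29 and Nusap1 by 1.27 ± 0.24 on the log2 scale, while Aurkb and Kif23 were above background on no control array of day 84 and Cdca8, the gene that was not lower in the mean, on none of either day. For 21 genes every control of day 84 lay below every control of day 28, where 21.6% of all genes did. The controls of the 2 days lay on different slides, and with the slide as a block, which then rests on CCl4 arrays alone, 0 genes were called and the median was -0.17. The count was 2 with the normexp correction, 1 with scaling to the spike-in spots, 3 without any 1 control of day 28, 1 without control rat 1 or 2 of day 84 and 14 without control rat 3. That rat was the highest of its group for 28 of 32 genes, and for 3801 of all 10914. Age and slide cannot be told apart between the controls.

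Other genes of mitosis, 133 listed by role and 94 of them tested, moved in part. With CCl4, 67 rose and 6 fell at day 28, where 26.1% of all genes rose and 33.6% fell, and 55 rose and 10 fell at day 84, where 28.0% rose and 36.3% fell. With DEN, 17 rose and 6 fell at day 28, where 7.82% of all genes rose and 7.19% fell, and 48 rose and 17 fell at day 84, where 21.6% rose and 31.1% fell. Their medians with undetected genes at their bound were 0.88 and 0.58 with CCl4 and 0.08 and 0.31 with DEN at days 28 and 84 (1.47, 0.77, 0.14 and 0.42 as fitted). CCl4 at day 28 raised 19 of 20 further kinetochore and centromere genes (median 1.77 with bounds), 14 of 15 further spindle genes (median 3.14) and 5 of 6 further cytokinesis genes (median 3.29). Among the first was Cenpw, a histone-fold protein of the inner kinetochore (16.4-fold at day 28 and 12.6-fold at day 84). Fam83d, which brings casein kinase 1 to the spindle, rose 15.3-fold and 12.2-fold with CCl4 at days 28 and 84, and Pbk, a mitotic kinase, at least 9.21-fold at day 28. The chromokinesin Kif22 rose 11.5-fold with CCl4 at day 84.

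The 14 measured core subunits and regulators of the APC/C had small changes. Their medians were 0.25 and 0.17 with CCl4 at days 28 and 84 and -0.05 and 0.07 with DEN. Of these 14, 7 rose and 1 fell with CCl4 at day 28, where 26.1% of all genes rose and 33.6% fell. The largest rise among the 14 with CCl4 at day 28 was 1.02 on the log2 scale, less than that of any of the 32 genes. The 14 measured condensin and cohesin genes had medians with bounds of 0.27 and 0.07 with CCl4 at days 28 and 84 (0.54 as fitted at day 28). With DEN their medians were -0.07 and -0.17. In the DEN livers the largest change among the 94 genes was that of Mybl2 (B-Myb), the partner of MuvB at CHR promoters, which rose at least 44.1-fold at day 28 and at least 16.0-fold at day 84, when Cdk1 stood at 1.83-fold and 7.22-fold. With CCl4 the fitted log2 rise of Mybl2 was 3.31 and 3.14. Against DEN its CCl4 values were -2.56 and -1.60, opposite in sign to all 32 genes. Of the 6 tested genes listed for G2 and mitosis transcription, Mybl2 among them, 2 rose and 1 fell with DEN at day 28. Their median was -0.08, where 7.82% of all genes rose and 7.19% fell. Ckap2, a spindle microtubule protein, rose 8.16-fold and 11.3-fold with DEN at days 28 and 84, and Kntc1, a checkpoint protein of the kinetochore, at least 1.55-fold at day 28.

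Of 19 measured DNA replication genes, 17 rose and 1 fell with CCl4 at day 28, where 26.1% of all genes rose and 33.6% fell. At day 84, 17 rose and 0 fell, where 28.0% of all genes rose and 36.3% fell (medians with bounds 1.49 and 1.23). With DEN 6 rose and 1 fell at day 28, where 7.82% of all genes rose and 7.19% fell. At day 84, 16 rose and 1 fell, where 21.6% of all genes rose and 31.1% fell (medians 0.22 and 0.68). Rrm2, the inducible subunit of ribonucleotide reductase, rose 12.0-fold and 13.0-fold with CCl4 at days 28 and 84 and 8.92-fold with DEN at day 84. Cdt1, which licenses replication origins, rose at least 3.17-fold with CCl4 and at least 1.47-fold with DEN at day 28. Tyms, thymidylate synthase, rose 2.33-fold with DEN at day 28. Tk1, thymidine kinase, rose 5.68-fold with CCl4 at day 84, and Gins1, of the replicative helicase, 3.38-fold with DEN at day 84.

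Grouped by these promoter windows, the 14 measured genes with CHR letters had median log2 fold changes, bounds included, of 3.50 and 3.18 with CCl4 and 0.80 and 2.39 with DEN at days 28 and 84. The 5 without them had medians of 3.16 and 2.42 with CCl4 and 0.72 and 1.56 with DEN, and the ranges overlapped in all 4 comparisons.

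Markers of liver cell types moved alongside, and their counts stand beside shares of all genes that rose or fell of 26.1% and 33.6% (CCl4, day 28), 7.82% and 7.19% (DEN, day 28), 28.0% and 36.3% (CCl4, day 84) and 21.6% and 31.1% (DEN, day 84). All 9 hepatocyte markers fell with CCl4 at day 28 and 8 of 9 at day 84, and with DEN 3 of 9 fell at day 28 and 8 of 9 at day 84. Their summed signal, in units of the array's 75th percentile, was 2583 to 3449 with CCl4 and 4719 to 4856 with DEN at day 28, against 5694 to 5843 in controls, and 2911 to 3793 with CCl4 and 2758 to 3246 with DEN at day 84, against 4708 to 4809 in controls. Of 9 measured lymphocyte markers, 5 rose with CCl4 at each day and 1 fell at day 84, and with DEN 5 rose at day 28 and 1 rose and 1 fell at day 84. Their sum was 8.37 to 11.6 with CCl4 and 9.49 to 10.4 with DEN at day 28, against 5.05 to 6.75 in controls, and 9.33 to 10.9 with CCl4 and 6.33 to 7.75 with DEN at day 84, against 5.08 to 6.39 in controls. Cd3e was well above background on no control array of day 28 and on 2 DEN and 3 CCl4 arrays.

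Of 8 stellate cell markers, 6 rose with CCl4 at each day (sums of 37.1 to 75.6 at day 28 and 35.4 to 52.7 at day 84, against 14.6 to 25.4 and 15.1 to 17.7 in controls), and with DEN 0 rose at day 28 and 2 rose and 1 fell at day 84. Of 5 measured cholangiocyte markers, 3 and 5 rose with CCl4 and 0 and 4 with DEN at days 28 and 84 (sums of 6.68 to 9.18 with CCl4 and 4.49 to 7.76 with DEN at day 84, against 1.39 to 1.69 in controls), and Cftr and Sctr were above background on no control array. Of 8 macrophage markers, 3 rose and 3 fell with CCl4 at each day, shares near those of all genes, and 2 rose with DEN at each day. Their sums at day 28 were 98.5 to 121 with CCl4 and 162 to 170 with DEN, against 125 to 163 in controls. The sums at day 84 were wholly below those of controls, at 76.9 to 112 with CCl4 and 90.5 to 118 with DEN, against 124 to 146. Single markers had fitted log2 fold changes of -1.78 to 7.06 and -2.79 to 7.81 with CCl4 at days 28 and 84. With DEN these ran from 0.10 to 1.30 and from -0.69 to 2.94. Of 3 tested neutrophil markers, 3 rose with CCl4 at day 84 and 0 in the other comparisons with controls, and Cxcr2 was above background on no array. Of 4 measured endothelial markers and 3 tested erythroid markers, 2 each fell with CCl4 at both days and with DEN at day 84. The part of these changes in the values of the mitosis genes was not tested.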

How the data were processed

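Liver RNA of 18 rats was hybridised to one-colour Agilent arrays. The authors' software was Agilent Feature Extraction (version 10.7.1.1 in the submitters' processing notes). Its deposited output holds, for each spot, an intensity already corrected for background, per the file headers. The authors' deposited values for all arrays are a linear ratio: the processed signal over a constant near each array's 75th percentile (100% of probes within 0.01 log2).

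Log2 processed signals minus each array's 75th percentile were used, for probes well above background on all 3 arrays of at least 1 group, with 1 probe per gene (the highest mean over 18 arrays). Saturation touched 0 probes, and 18 with outlier marks were left out. Probes were named through RefSeq accessions, and 28206 of 61537 matched 1 gene. One limma 3.58.1 model of 6 groups (R 4.3.3, 12 residual degrees of freedom) gave 9 comparisons, adjusted by the Benjamini-Hochberg method over 10914 genes, with a threshold of 0.05. It was tested on simulated data. A bound sets the bright group's mean against the higher of each dim array's lowest signal above background and the gene's own. Arrays have no read depth, and 3 rats per group limit the precision.

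The members and lists were chosen with earlier results of these data known. Any member could be named. Of the other mitosis and replication genes, the 3 and 2 called genes with the largest fold change against control were named. Replicate numbers were checked as pairs: the deviations of 18 same-numbered pairs correlated between -0.135 and 0.130, with 3 above 0.1, so they share only a number. Alternatives were normexp (offset 50), 2 other filters, quantile normalization, spike-in scaling, the deposited ratios, the mean over probes, slide and replicate blocks, 1 slide, the compared groups alone, and leaving out each array. Sequences are RefSeq's for GRCr8, with the first window listed per gene, used where its start lay within 300 bases of the gene's outermost 5′ end. Tables and plots used Python 3.11.15, numpy 2.4.6, pandas 2.3.3, matplotlib 3.10.9 and the R package data.table (version 1.17.8).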

Additional observations from a re-analysis of the deposited data

Results flagged for a closer look

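For 20 of 32 genes, and for 7.64% of all genes tested, the test of the difference between days found a larger effect of DEN at day 84 than at day 28, on the log2 scale. All these differences draw on the controls of both days as well as on the DEN livers. Age and slide cannot be told apart between those controls. The cyclins and Cdk1 differed by 2.06 (Ccna2), 1.98 (Cdk1), 1.70 (Ccnb2) and 1.66 (Ccnb1). In the means, the controls fell more than the DEN livers rose for Cdk1 and Ccnb1. The fall and the rise were about equal for Ccna2, and the fall was the smaller for Ccnb2. The midzone genes differed by 1.80 (Racgap1), 1.78 (Prc1) and 1.63 (Kif20a), and the kinetochore genes by 1.96 (Spc25), 1.68 (Nuf2) and 1.59 (Ndc80). Birc5 of the passenger complex differed by 0.98, Nusap1 of the spindle by 1.73, the pole kinase Plk1 by 1.39 and the checkpoint gene Mad2l1 by 1.09. Pttg1, Ube2c and Espl1 of anaphase entry differed by 1.51, 1.39 and 1.38, and Mki67 by 1.24. The fitted differences of Aurkb (1.83) and Kif23 (1.68) have no exact size, as no control array of day 84 was well above background for them. The effect of CCl4 was smaller at day 84 than at day 28 for 2 of 32 genes, Aurka (-1.12) and Foxm1 (-0.94), a share near that of all genes called for this difference in either direction (6.03%).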

How the results depend on the processing

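All 32 genes rose with CCl4 against control and against DEN at day 28 in every alternative that kept all of them, and the filter for probes above background on all 18 arrays left 21 genes to test, of which 21 rose in those comparisons and in CCl4 against control at day 84. Leaving out each array gave counts of 32 to 32 for these 3 comparisons and of 31 to 31 for DEN against control at day 84. For DEN against control at day 28 (10 called) the count was 5 with normexp, 30 with spike-in scaling, 4 with the compared groups alone and 2 to 26 without each array. For CCl4 against DEN at day 84 (19 called) it was 4 with spike-in scaling, 1 with the slide as a block, 1 on arrays of 1 slide (1 CCl4 array) and 6 to 19 without each array. For the DEN difference between days (20 called) it was 12 with normexp and 7 to 23 without each array, and for that of CCl4 (2 called) 11 with normexp and 1 to 3 without each array. For the controls of day 84 against day 28 (7 called) it was 2 with normexp, 4 with no filter on dim probes, 1 with spike-in scaling, 0 with the slide as a block, 3 with the compared groups alone and 1 to 14 without each array. Cdca8 reversed with normexp in DEN against control at day 84 (-0.33, adjusted p = 0.00486 by limma). The cause of these changes was not tested, except that the stricter filter tested fewer genes. With a replicate block, although the numbers pair nothing, the counts in the order of the fits (at each day DEN with control, CCl4 with control and CCl4 with DEN, then the differences for DEN and CCl4, and the controls) were 9, 32, 32, 31, 32, 15, 17, 2 and 5. Fits on 1 slide were not possible for the differences between days and for the controls of both days, and no test of the methods could be repeated, as the sources used here state none. With every promoter window used instead of those near the gene's end, CCAAT and CHR letters each stood in 74.2% of 31 windows. Signals near background, such as those of Cdca8, Nek2 and Kif2c, limit what the smallest differences show.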
